A study of Mus musculus with 31 samples.

Results

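The retinas of mice without Rorb were compared with those of +/+ mice at postnatal day 28 (P28), on Affymetrix arrays that measured messenger RNA for 18193 genes. The samples were taken by their age and genotype labels: 4 labelled P28 Rorb-/- and 4 labelled P28 +/+, 8 of the 31 samples of the series. Each sample was the total RNA of both retinas of 1 mouse, isolated with Trizol from tissue frozen on dry ice, and 5 µg went into the biotin labelling. Neither group carries the CrxpNrl transgene, named for the Crx promoter and Nrl, that other groups of the series carry. The labels give no strain, sex or description of the deleted part of Rorb. P14 Rorb-/- and P14 +/+ mice, 4 of each and different animals, are used only where a difference between ages is stated.

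Rorb encodes an orphan nuclear receptor of the ROR family. In the developing mouse retina it is required for Nrl, the leucine zipper factor that directs photoreceptor precursors to become rods, and precursors without Nrl take on cone features. It also acts upstream of Ptf1a in the cells that become amacrine and horizontal cells, the inhibitory interneurons of the retina. Rods, by far the most numerous cells of the mouse retina, and cones use parallel sets of genes to turn light into an electrical signal: a visual pigment activates a transducin, the transducin activates a phosphodiesterase, and the fall in cyclic GMP closes a cation channel.

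All values below are log2 RMA values of 1 probe set per gene, and a difference is the mean of the Rorb-/- retinas minus the mean of the +/+ retinas, ± its standard error, so that 1 is a 2-fold difference and a positive value is higher in Rorb-/-. The adjusted p comes from 1 limma fit over all 31 arrays with Benjamini-Hochberg adjustment over all 18193 genes, and a gene is said to rise or fall where it is under 0.05. Values per sample run in the order of replicates 1 to 4. Levels of different probe sets are not compared. Whole retinas were measured, so fewer cells of a type and less RNA per cell cannot be told apart. The value table has no detection call. Its lower quartile per array lay between 3.98 and 4.05 and its maxima between 14.2 and 14.3, so a difference with a group near either end may be understated.

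Rorb itself had 9.66, 9.55, 9.98 and 9.09 in the Rorb-/- retinas, against 10.68, 10.39, 10.81 and 10.45 in the +/+ retinas. The groups did not overlap, and the difference was -1.01 ± 0.19 (adjusted p = 0.000117). The other probe sets of Rorb gave -1.35 and -1.47. A probe set outside the deleted part would not check the labels, and which of these lie outside it is not known here. Arrays of the same group correlated at 0.987 to 0.993 over genes and arrays of different groups at 0.969 to 0.975.

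Lens transcripts set some mice apart inside both groups. The mean of 13 lens genes, mostly crystallins, was 11.0, 11.0, 7.38 and 4.86 in the Rorb-/- retinas, against 6.79, 6.14, 10.8 and 7.80 in the +/+ retinas. Rorb-/- replicates 1 and 2 and +/+ replicate 3 were the high ones, and none of the 13 genes passed the test between the groups. Counts that move by over 1.5 times without these 3 mice are given both ways.

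Of the 18193 genes, 2889 (15.9%) were higher and 2768 (15.2%) lower in Rorb-/- retinas at adjusted p under 0.05. With a difference of at least 2-fold also required, 620 (3.41%) were higher and 392 (2.15%) lower. At least 8-fold differences were found for 29 higher and 37 lower genes, and at least 32-fold for 4 lower genes. All 4 Rorb-/- values lay above all 4 +/+ values for 2846 genes (15.6%) and below them for 2822 (15.5%). The median difference over all genes was -0.02. These shares are the background for the 30 gene lists. Of the lists said below to have no member in 1 direction, no member passed in that direction at an unadjusted p under 0.05 in the limma fit either, except 1 Müller glia gene that was lower. Of the lists, rod phototransduction had the lowest median difference (-2.61) and cone phototransduction the highest (1.94).

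**Figure D1:**
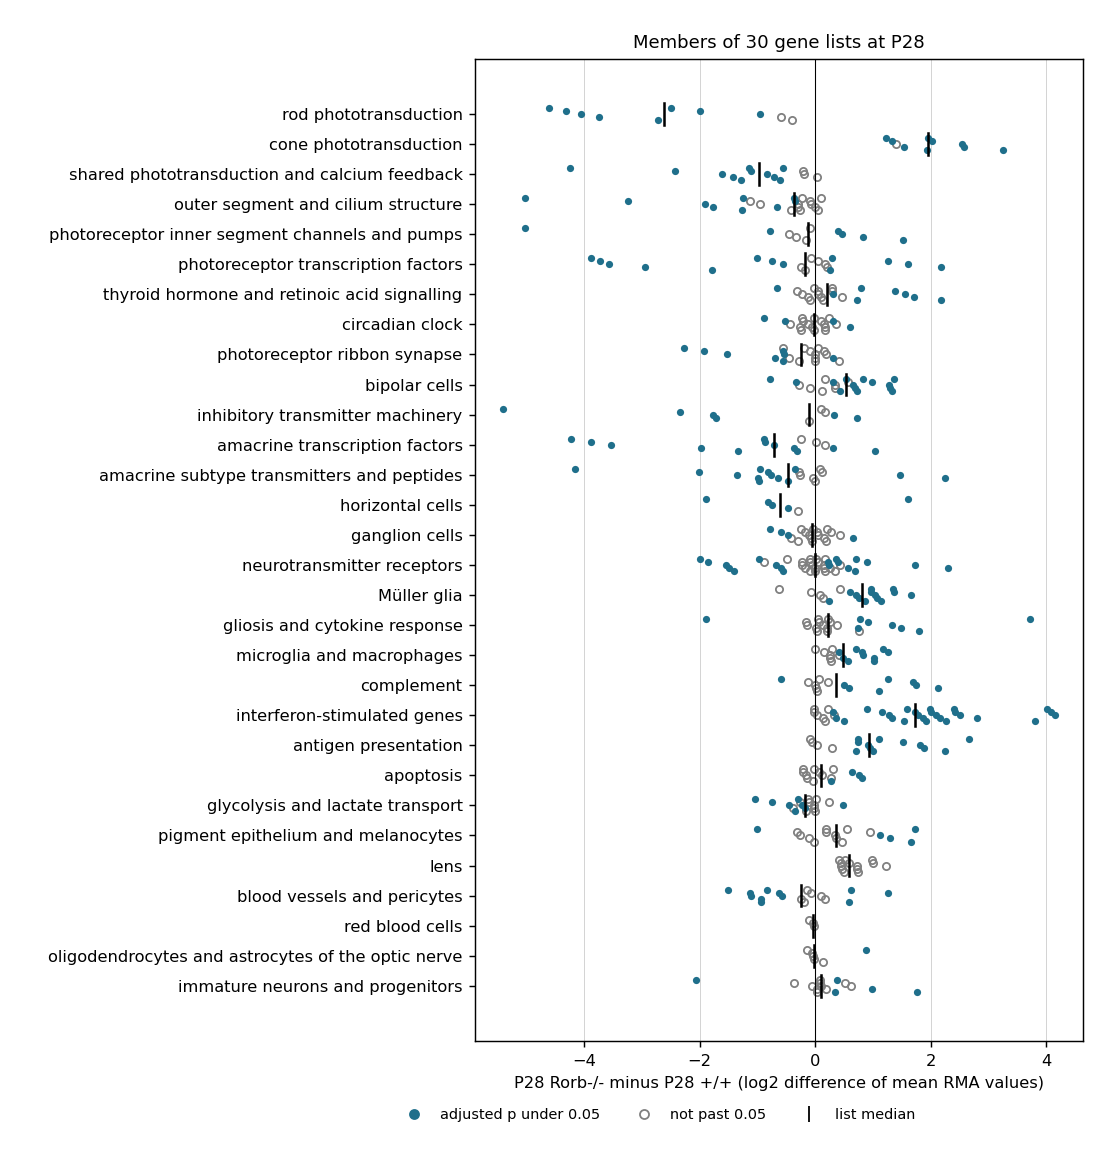
Difference between P28 Rorb-/- and P28 +/+ retinas (log2, horizontal axis) for each measured member of 30 gene lists (rows). Filled points passed adjusted p 0.05, open points did not, and a vertical bar marks the list's median. Rod phototransduction lies to the left (median -2.61) and cone phototransduction (1.94) and interferon-stimulated genes (1.73) to the right, while ganglion cell genes (-0.06) and receptors (0.00) centre on 0.

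Promoters of 4 genes from the main groups are shown, from 250 bases before to 50 bases from the transcription start in RefSeq (GRCm38.p6), written 5′ to 3′ on the gene's strand. Pde6b (chr5:108388123-108388422, plus strand) and Cnga1 (chr5:72642703-72643002, minus strand) had the largest falls of the rod genes. Gnat2 (chr3:108092816-108093115, plus strand) is the cone transducin gene that rose, and Ifit1 (chr19:34640639-34640938, plus strand) is among the interferon-stimulated genes that rose most. Capitals mark matches on either strand to TAATCC, the core bound by the CRX and OTX homeodomain proteins, TGCTGA, a site element of the MAF family to which NRL belongs, AGGTCA, the core site of nuclear receptors, and a pair of GAAA with 2 bases between them, the core of the interferon response element. In this order these motifs were found in 7.06%, 19.5%, 16.3% and 3.44% of all 32851 RefSeq promoters of this length.
Cnga1: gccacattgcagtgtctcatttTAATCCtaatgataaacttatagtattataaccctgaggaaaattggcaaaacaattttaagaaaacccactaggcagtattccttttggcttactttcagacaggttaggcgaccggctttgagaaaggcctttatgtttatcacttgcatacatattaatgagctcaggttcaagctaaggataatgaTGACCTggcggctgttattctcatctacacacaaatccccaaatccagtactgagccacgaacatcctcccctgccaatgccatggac
Pde6b: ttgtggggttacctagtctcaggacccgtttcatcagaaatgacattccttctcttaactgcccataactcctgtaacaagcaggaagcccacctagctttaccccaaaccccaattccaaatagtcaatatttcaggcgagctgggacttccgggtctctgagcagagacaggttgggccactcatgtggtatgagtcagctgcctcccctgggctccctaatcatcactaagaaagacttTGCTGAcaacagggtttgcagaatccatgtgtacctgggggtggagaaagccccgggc
Gnat2: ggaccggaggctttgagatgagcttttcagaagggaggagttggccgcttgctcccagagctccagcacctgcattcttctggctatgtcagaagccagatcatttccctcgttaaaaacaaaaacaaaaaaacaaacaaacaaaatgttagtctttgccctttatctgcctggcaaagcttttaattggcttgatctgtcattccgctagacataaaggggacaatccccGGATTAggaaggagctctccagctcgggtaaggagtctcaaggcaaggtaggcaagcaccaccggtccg
Ifit1: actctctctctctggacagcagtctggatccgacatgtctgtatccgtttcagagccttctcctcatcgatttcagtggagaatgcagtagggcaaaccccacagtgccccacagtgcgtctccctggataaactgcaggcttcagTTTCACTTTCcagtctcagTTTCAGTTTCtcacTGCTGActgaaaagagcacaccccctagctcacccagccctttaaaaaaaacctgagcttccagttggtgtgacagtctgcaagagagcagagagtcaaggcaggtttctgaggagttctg
The rod gene Pde6b has TGCTGA 8 bases before its start, and Cnga1 has TAATCC 228 and AGGTCA 38 bases before its start, printed as TGACCT because it lies on the opposite strand. Gnat2 has TAATCC on the opposite strand (GGATTA), 19 bases before the start. Ifit1 has the GAAA pair at 2 places, both on the opposite strand, and TGCTGA at 1. The promoters of Nrl, the cone gene Pde6h and Oasl2 were also searched and are not printed. Those of Nrl and Pde6h held none of the 4 motifs. That of Oasl2, an interferon-stimulated gene that rose more than Ifit1, held TAATCC but no GAAA pair. Of the 7 rod phototransduction genes with a promoter in the table, 4 (57.1%) held TAATCC, as did 1 of 7 cone promoters (14.3%). Of 28 promoters of interferon-stimulated genes, 15 (53.6%) held the GAAA pair. A match is a stretch of letters in this window and not evidence of binding.

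Nrl, the rod fate factor, fell to 9.74, 8.71, 9.72 and 9.97 in the Rorb-/- retinas, against 13.36, 13.09, 13.32 and 13.28 in the +/+ retinas. The groups lay far apart, and the difference of -3.73 ± 0.40 (adjusted p = 1.47e-08) is 13.3-fold. Of 19 measured photoreceptor transcription factors, 8 fell and 5 rose, beside 15.2% and 15.9% of all genes. Samd11, a component of a repressor complex in rods, had 7.18, 7.16, 7.53 and 7.43 in Rorb-/- and 11.30, 10.93, 11.43 and 11.18 in +/+ (difference -3.89 ± 0.29, adjusted p = 8.5e-12), and its partner Samd7 fell by 1.79 ± 0.37. Esrrb, an orphan receptor needed for rod survival, had 7.47, 6.70, 8.19 and 7.87 in Rorb-/- and 10.45, 10.49, 10.54 and 10.57 in +/+, with the lowest Rorb-/- value in replicate 2.

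Crx, the homeodomain factor shared by rods and cones, had 12.06, 12.09, 12.12 and 12.10 in Rorb-/- and 12.35, 12.34, 12.29 and 12.34 in +/+. Its groups did not overlap, but the difference of -0.24 ± 0.16 did not pass (adjusted p = 0.301) with the spread of all 8 groups of the series, and passed with only these 8 samples in the fit (adjusted p = 0.0012). Neurod1, a helix-loop-helix factor of both photoreceptor types, differed by -0.06 ± 0.15 with overlapping groups. The factors that rose included 2 known from cones: Rxrg, a retinoid receptor that holds back the S opsin gene, with 8.67, 8.78, 8.52 and 8.61 in Rorb-/- and 6.31, 6.74, 6.38 and 6.47 in +/+, and Sall3, a zinc finger factor of cones and horizontal cells, with 7.45, 7.37, 7.78 and 7.58 in Rorb-/- and 5.94, 6.27, 5.81 and 5.72 in +/+. Thrb, the thyroid hormone receptor of M cones, had 6.82, 6.13, 5.98 and 6.30 in Rorb-/- and 6.32, 6.16, 6.13 and 6.41 in +/+, and the groups overlapped (difference 0.05 ± 0.19). Prdm1, a repressor that keeps photoreceptor precursors from bipolar fate, rose by 1.25 ± 0.24. Of the 19 factors, 3 rose and 6 fell without the 3 mice with high lens transcripts, and 3 rose when Rorb-/- replicate 1 or 4 or +/+ replicate 3 alone was left out.

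The rod phototransduction genes had lower and their cone counterparts higher values at every step measured. Of 10 rod genes 8 fell and none rose, and all 10 had every Rorb-/- retina under every +/+ retina. Of 10 cone genes 9 rose and none fell, with all 10 above.

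At the transducin step, the rod alpha subunit gene Gnat1 had 11.54, 11.33, 11.39 and 11.65 in Rorb-/- and 14.03, 13.98, 13.96 and 13.94 in +/+, a difference of -2.50 ± 0.51. Its cone counterpart Gnat2 had 13.35, 13.20, 13.31 and 13.33 in Rorb-/- and 11.23, 11.29, 11.30 and 11.26 in +/+, a difference of 2.03 ± 0.19 (adjusted p = 1.5e-09). The mice of a group lay close together for both genes, and the groups far apart. For the beta subunits, Gnb1, used by rods and by other cells, fell by 1.99 ± 0.35, with +/+ replicate 1 at 11.67 under its group (13.03 to 13.36), while the cone subunit Gnb3 rose by 1.53 ± 0.08. For the gamma subunits, the rod gene Gngt1 had 12.09 to 12.31 in Rorb-/- and 12.74 to 12.85 in +/+ and a difference of -0.59 ± 0.26 (adjusted p = 0.0818, 1.01e-05 with only these 8 samples). Its second probe set differed by -1.49 and passed when it stood for the gene (adjusted p = 0.0014). The cone gene Gngt2 rose by 2.53 ± 0.21.

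At the phosphodiesterase step, the catalytic subunits differed in the same directions. Pde6b had 8.34, 8.78, 8.44 and 8.77 in Rorb-/- and 13.04, 13.10, 13.32 and 13.31 in +/+, a difference of -4.61 ± 0.54 or 24.4-fold. Pde6a, its rod partner, fell by 2.72 ± 0.40. Pde6c, the cone enzyme, had 12.31, 12.62, 12.57 and 12.45 in Rorb-/- and 10.10, 10.10, 10.23 and 9.23 in +/+, a difference of 2.57 ± 0.27. The groups did not overlap for Pde6c, and +/+ replicate 4 was the lowest. Of the inhibitory subunits, the rod gene Pde6g fell by 0.96 ± 0.28 (adjusted p = 0.0103, 0.0961 without the 3 mice with high lens transcripts) and the cone gene Pde6h rose by 1.95 ± 0.49.

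At the cation channel, the rod subunits fell and the cone subunit measured rose. Cnga1, the alpha subunit of the rod channel, had 7.84, 7.57, 7.72 and 8.38 in Rorb-/- and 12.13, 12.04, 12.25 and 12.31 in +/+, a difference of -4.31 ± 0.44 (adjusted p = 4.99e-09). The beta subunit Cngb1 fell by 3.73 ± 0.33, and the cone beta subunit Cngb3 rose to 10.63, 11.19, 10.97 and 10.96 in Rorb-/-, against 7.47, 7.88, 7.73 and 7.65 in +/+. The sodium-calcium exchanger of rods, Slc24a1, fell by 4.05 ± 0.37, and that of cones, Slc24a2, rose by 1.23 ± 0.23 (its second probe set 0.25). For the arrestins that end the response, the rod gene Sag had 13.47, 13.54, 13.70 and 13.81 in Rorb-/- and 14.08, 14.04, 13.98 and 14.01 in +/+, values close to the array maxima, with a difference of -0.40 ± 0.17 (adjusted p = 0.0755, 0.0013 with only these 8 samples). The cone arrestin Arr3 rose by 1.94 ± 0.43 (adjusted p = 0.000775). Of the cone opsins, Opn1mw rose by 1.32 ± 0.25, and Opn1sw had 13.81, 13.73, 13.46 and 13.52 in Rorb-/- and 12.26, 12.44, 12.03 and 12.22 in +/+. Opn1sw did not overlap between the groups, but its difference of 1.39 ± 0.56 missed the threshold (adjusted p = 0.0587, 1.19e-06 with only these 8 samples). Its second probe set differed by 2.20, and the mean of both passed (1.80, adjusted p = 0.000122).

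**Figure D2:**
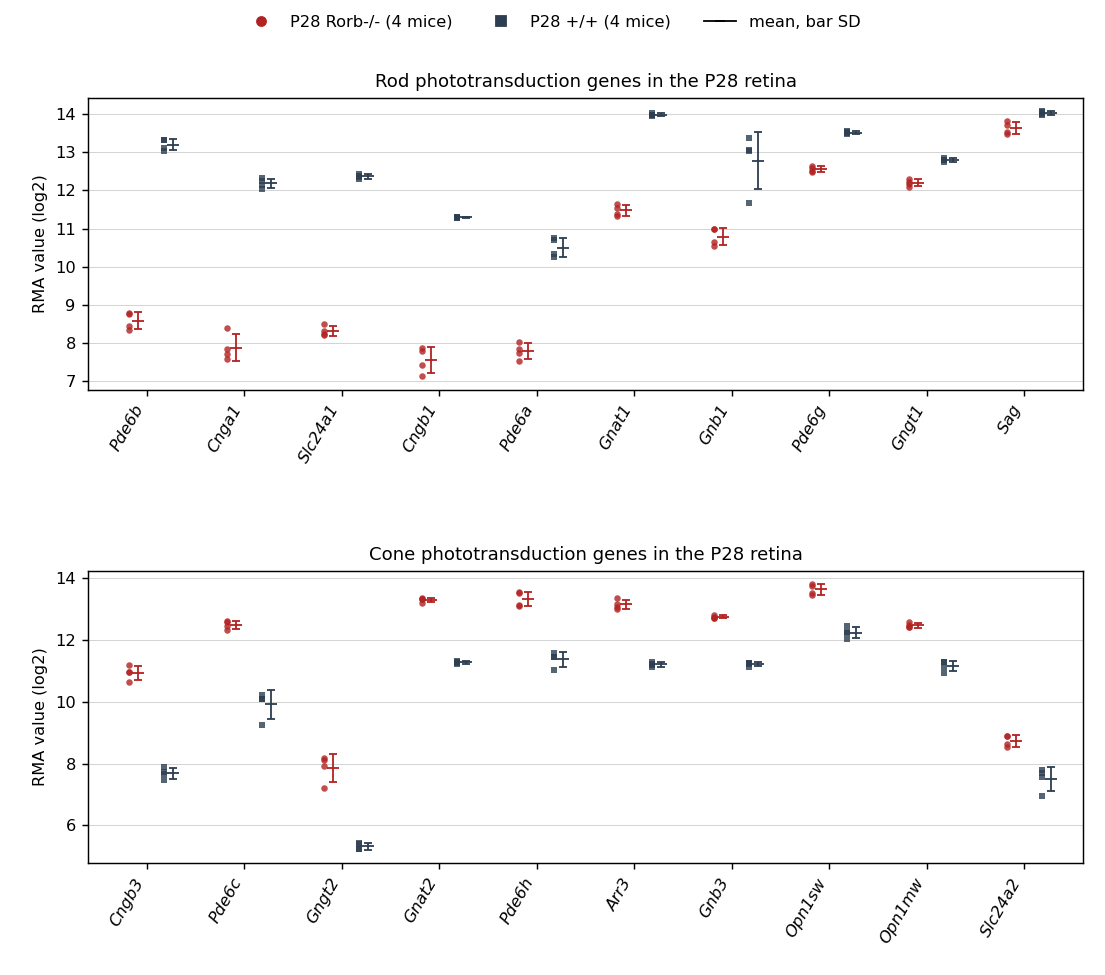
RMA values (log2, vertical axis) of the rod phototransduction genes (upper panel) and the cone phototransduction genes (lower panel) in P28 Rorb-/- (left of each pair) and P28 +/+ retinas. Points are mice, and the bars give the mean and SD of 4 mice. In the upper panel every Rorb-/- mouse lies under every +/+ mouse, with Pde6b differing most (-4.61) and Sag least (-0.40), and in the lower panel every Rorb-/- mouse lies above.

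Genes that serve both photoreceptor types lay mostly with the rod genes. Of 14 measured, 11 fell and none rose, and the median difference was -0.97. Guca1b, one of the calcium sensors of guanylate cyclase, had 8.62, 9.10, 9.18 and 9.38 in Rorb-/- and 13.33, 13.39, 13.20 and 13.33 in +/+ (difference -4.24 ± 0.36). Its sister gene Guca1a had 13.04, 13.23, 13.36 and 13.45 in Rorb-/- and 13.51, 13.64, 13.38 and 13.36 in +/+, with overlapping groups and a difference of -0.21 ± 0.28. Rdh12, which reduces the retinal released from bleached pigment, fell by 2.43 ± 0.29, and Rgs9bp, the anchor of the complex that shuts transducin off, fell by 1.62 ± 0.27. Abca4, the transporter that clears retinal from the discs, fell by 1.15 ± 0.25. Aipl1, the chaperone of the phosphodiesterase, differed by 0.03 ± 0.29 with overlapping groups.

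Among 21 genes of the outer segment and its cilium, 9 fell and none rose. Rom1, a disc rim protein, had 11.30, 11.38, 11.04 and 11.71 in Rorb-/- and 13.34, 13.26, 13.18 and 13.31 in +/+ (difference -1.91 ± 0.29). Rp1, a microtubule protein of the axoneme, had 10.49, 10.54, 10.31 and 10.51 in Rorb-/- and 12.13, 12.18, 12.23 and 12.37 in +/+ (difference -1.76 ± 0.35), again without overlap. Prom1, a membrane protein of nascent discs, fell by 1.27 ± 0.31, and Fam161a, a protein of the connecting cilium, fell by 1.26 ± 0.19. Fscn2, an actin bundling protein of photoreceptors, fell to 4.05, 4.49, 4.41 and 4.26 in Rorb-/-, near the lower quartile of the arrays, against 9.21, 9.16, 9.42 and 9.50 in +/+. Of the general cilium genes, Bbs2 fell by 0.67 ± 0.11, and Bbs1 and Ift88 also fell, while Bbs4 (0.10 ± 0.06) and Kif3a (0.05 ± 0.11) did not pass. Cdhr1 (-0.07 ± 0.27), a cadherin of the disc edge, did not pass either. With only these 8 samples in the fit 14 of the 21 fell.

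Prph2, the partner of Rom1 at the disc rim, varied more between mice than between genotypes. It had 5.59, 5.42, 11.25 and 5.07 in Rorb-/- and 6.66, 8.05, 8.86 and 7.59 in +/+. Rorb-/- replicate 3 had the highest value of all 8 mice, and the other 3 Rorb-/- mice were under every +/+ mouse. The difference was -0.95 ± 1.29 (adjusted p = 0.635), while at P14 it was -4.67 ± 1.29. Rorb-/- replicate 3 was not high for Rom1 or Rp1.

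Of 10 genes for channels and pumps of the photoreceptor inner segment, 4 (40%) rose and 2 (20%) fell, beside 15.9% and 15.2% of all genes. Kcnj14, an inward rectifier channel, had 6.06, 6.46, 6.37 and 7.04 in Rorb-/- and 11.15, 11.66, 11.51 and 11.65 in +/+, a difference of -5.01 ± 0.39 or 32.3-fold. Kcne2, an accessory potassium channel subunit, moved the other way, with 11.41, 11.24, 11.36 and 11.47 in Rorb-/- and 9.87, 9.85, 9.77 and 9.89 in +/+ (difference 1.52 ± 0.10). Slc1a7, the glutamate transporter of photoreceptor and bipolar terminals, rose by 0.82 ± 0.09. Without the 3 mice with high lens transcripts 2 of the 10 rose and 1 fell, and 1 fell when any 1 mouse other than +/+ replicate 2 was left out. With only these 8 samples in the fit 4 fell.

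At the ribbon synapse, by which photoreceptors release glutamate, 7 of 20 genes fell and 1 rose, and 2 rose without the 3 mice with high lens transcripts, without Rorb-/- replicate 2 alone or with the mean of a gene's probe sets. Cabp4, the calcium binding protein of the presynaptic calcium channel, had 8.07, 8.40, 7.97 and 8.36 in Rorb-/- and 10.49, 10.40, 10.40 and 10.59 in +/+ (difference -2.27 ± 0.28). The scaffold gene Rims1 had 7.75, 7.67, 7.73 and 7.48 in Rorb-/- and 9.53, 9.52, 9.63 and 9.62 in +/+ (difference -1.92 ± 0.12), and both groups were tight. The channel's own subunits fell by different amounts: the beta subunit Cacnb2 by 1.53 ± 0.18 and the accessory subunit Cacna2d4 by 0.69 ± 0.14 (adjusted p = 0.000295, 0.065 without the 3 mice with high lens transcripts). The large scaffold genes Bsn (-0.08 ± 0.14) and Pclo (-0.01 ± 0.06) and the vesicle fusion gene Snap25 (-0.01 ± 0.05) did not pass, with overlapping groups.

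Thyroid hormone and retinoic acid set the balance of cone types and act on many retinal cells. Of 20 genes of these pathways 7 rose and 1 fell, and 3 fell without +/+ replicate 1 alone. Dio2, the deiodinase that makes active thyroid hormone, had 9.85, 9.30, 9.91 and 9.84 in Rorb-/- and 8.10, 8.26, 7.70 and 8.01 in +/+ (difference 1.71 ± 0.29, adjusted p = 2.86e-05). At P14 it was lower without Rorb (-0.79 ± 0.29, adjusted p = 0.0394), and the difference between the ages was 2.50 ± 0.41 (adjusted p = 0.000912). Rarb, a retinoic acid receptor, rose to 7.90, 7.72, 7.85 and 7.71 in Rorb-/-, against 6.59, 6.08, 6.49 and 6.50 in +/+. Aldh1a1, which makes retinoic acid, rose by 0.79 ± 0.16. Of the enzymes that degrade it, Cyp26b1 rose by 0.72 ± 0.10 while Cyp26a1 fell by 0.66 ± 0.19 with overlapping groups. The other receptor genes Thra (0.14 ± 0.08), Rara (-0.31 ± 0.13) and Rxra (-0.12 ± 0.10) did not pass.

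RORB shares its DNA sites with receptors of the circadian clock, and 4 of 19 clock genes passed, beside 31.1% of all genes. Arntl, which encodes the clock activator BMAL1, had 8.96, 8.79, 8.65 and 8.75 in Rorb-/- and 9.69, 9.63, 9.59 and 9.77 in +/+ (difference -0.88 ± 0.12, adjusted p = 1.66e-06). Its second probe set differed by -0.41, which did not pass when it stood for the gene (adjusted p = 0.419). Nfil3, a clock output repressor, had 6.40, 6.55, 6.56 and 6.29 in Rorb-/- and 7.06, 7.05, 6.89 and 6.90 in +/+ (difference -0.53 ± 0.13). Per2, a repressor of the clock loop, rose by 0.60 ± 0.13. Rora (0.16 ± 0.09), the sister gene of Rorb, and Nr1d1 (-0.02 ± 0.22) did not pass. The labels give no hour of dissection. The counts of this list moved with the settings: 2 rose and 2 fell, against 5 and 2 without the 3 mice with high lens transcripts, 4 and 5 with the replicate number as a block, and 1 and 4 with the mean of a gene's probe sets, and 1 rose without Rorb-/- replicate 3 or 4.

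Bipolar cells carry signals from photoreceptors inward, and 12 of 21 of their genes rose while 2 fell (1 fell without the 3 mice with high lens transcripts). Irx5, a homeobox factor of cone bipolar cells, had 7.86, 7.78, 7.73 and 7.53 in Rorb-/- and 6.20, 6.49, 6.32 and 6.57 in +/+ (difference 1.33 ± 0.14). Lhx4, another homeobox factor of cone bipolar cells, had 8.76, 8.95, 8.91 and 8.63 in Rorb-/- and 7.38, 7.58, 7.72 and 7.46 in +/+ (difference 1.28 ± 0.11). Scgn, a calcium binding protein of cone bipolar cells, rose by 0.83 ± 0.09, and Vsx1, a factor of cone bipolar cells, by 0.70 ± 0.13. The 2 that fell were Prkca and Pcp2. Prkca, the protein kinase by which rod bipolar cells are stained, had 10.44, 10.38, 10.54 and 10.37 in Rorb-/- and 11.16, 11.41, 11.12 and 11.13 in +/+ (difference -0.78 ± 0.11). Pcp2, found in rod and ON cone bipolar cells, fell by 0.34 ± 0.07 (adjusted p = 0.000179, 0.0501 without the 3 mice with high lens transcripts). Prkca differed by -0.07 ± 0.11 at P14, and the change between ages was -0.71 ± 0.16 (adjusted p = 0.0106, 0.0615 without the 3 mice with high lens transcripts). Car8 and Cabp5, both of bipolar cells, rose by 1.37 ± 0.17 and 1.30 ± 0.12. The remaining genes of the list that rose were Trpm1, Nyx, Rgs11, Lhx3, Isl1 and Irx6. The list is not divided into rod and cone bipolar genes, and a difference between these kinds of bipolar cell was not tested.

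Of 9 genes of inhibitory transmission 4 fell and 2 rose, and 1 rose without Rorb-/- replicate 4 alone or with the mean of a gene's probe sets. The enzyme gene Gad1, which makes GABA, had 5.90, 5.81, 6.44 and 6.12 in Rorb-/- and 11.55, 11.54, 11.36 and 11.44 in +/+, a difference of -5.41 ± 0.29 or 42.4-fold, and both of its probe sets fell. Gad2, which encodes the second GABA enzyme, had 8.66, 8.52, 8.42 and 8.40 in Rorb-/- and 7.91, 7.71, 7.69 and 7.78 in +/+, a rise of 0.73 ± 0.10 (adjusted p = 6.69e-07), with its second probe set at 0.14. Neither gene overlapped between the groups. Slc32a1, the transporter that fills vesicles with GABA or glycine, had 7.17, 7.33, 6.90 and 6.95 in Rorb-/- and 8.93, 9.02, 8.77 and 8.68 in +/+ (difference -1.76 ± 0.13, -0.51 with the mean of its probe sets). The glycine transporters fell too, Slc6a9 by 1.71 ± 0.12 and the neuronal Slc6a5 by 2.34 ± 0.17. Slc6a5 had 3.36 to 3.61 in Rorb-/-, under the lower quartile of the arrays, and 5.63 to 5.995 in +/+. Gphn (-0.10 ± 0.06), the anchor of inhibitory receptors, and Slc12a5 (0.09 ± 0.11), the chloride exporter of mature neurons, did not pass.

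Transcription factors of amacrine cells fell in 10 of 15 cases and rose in 2, with a median of -0.71. Without the dimmest 40% of genes 6 fell, and 1 rose when any 1 mouse other than +/+ replicates 3 and 4 was left out. The AP-2 genes, which act in amacrine and horizontal cells, led: Tfap2b had 5.90, 6.28, 6.51 and 6.68 in Rorb-/- and 10.67, 10.55, 10.58 and 10.45 in +/+ (difference -4.22 ± 0.14). Tfap2a had 4.82, 5.36, 4.64 and 4.70 in Rorb-/- and 8.67, 8.59, 8.23 and 8.16 in +/+ (difference -3.53 ± 0.13), and Tfap2c fell by 3.88 ± 0.13. Meis2, a homeobox factor of GABA amacrine cells, fell by 1.98 ± 0.15, and Barhl2, a homeobox factor of several amacrine types, by 1.34 ± 0.18. Pax6, present in all amacrine and ganglion cells, had 10.32, 10.25, 10.27 and 10.38 in Rorb-/- and 10.62, 10.68, 10.60 and 10.56 in +/+, without overlap but with the small difference of -0.31 ± 0.07 (adjusted p = 0.00124, 0.0844 with the mean of its probe sets). Ptf1a and Foxn4, which act in the progenitors of these cells, differed by -0.24 ± 0.11 and 0.17 ± 0.09 and did not pass at this age, though Ptf1a passed without the 3 mice with high lens transcripts (-0.43, adjusted p = 0.0232) and without +/+ replicate 3 alone (0.0285). Sox2, present in Müller glia as well as in some amacrine cells, rose by 1.04 ± 0.13.

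**Figure D3:**
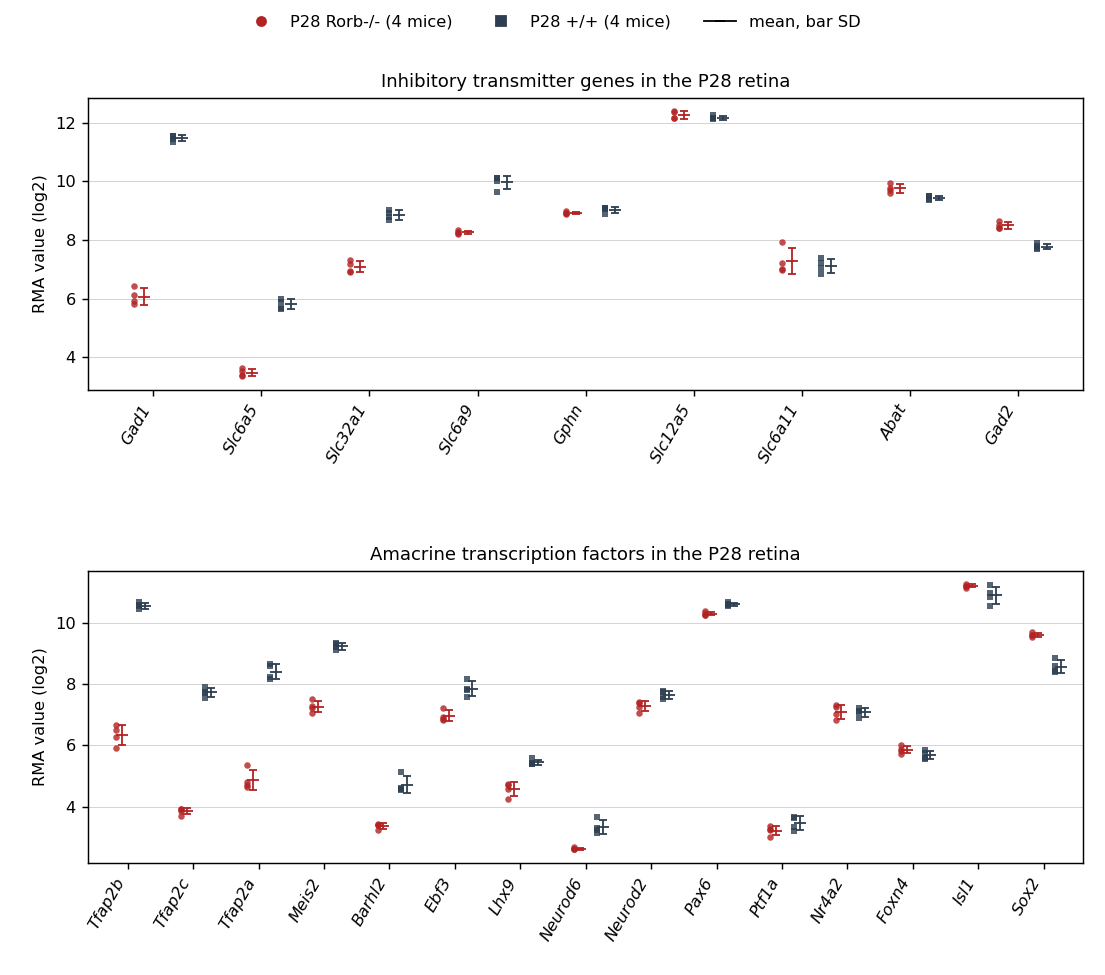
RMA values (log2, vertical axis) of genes of inhibitory transmission (upper panel) and of amacrine transcription factors (lower panel) in P28 Rorb-/- (left of each pair) and P28 +/+ retinas. Points are mice, and the bars give the mean and SD of 4 mice. Gad1 lies between 5.81 and 6.44 in Rorb-/- and near 11.5 in +/+, while Gad2 is higher in Rorb-/-, and Tfap2b, Tfap2c and Tfap2a show the widest gaps of the lower panel.

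Of 19 transmitter and peptide genes that mark amacrine subtypes, 11 fell and 2 rose. The cholinergic genes of starburst amacrine cells fell together: Slc18a3, the vesicular acetylcholine transporter, had 3.84, 3.90, 3.83 and 3.94 in Rorb-/- and 5.997, 5.59, 5.91 and 6.02 in +/+ (difference -2.003 ± 0.15). Chat, which makes acetylcholine, fell by 0.64 ± 0.11, and Slc5a7, which takes up choline, by 0.95 ± 0.18. All 3 ended near or under the lower quartile of the arrays in Rorb-/-. Th, the dopamine enzyme, had 5.58, 5.19, 4.75 and 5.05 in Rorb-/- and 6.26, 6.004, 5.70 and 5.84 in +/+ (difference -0.81 ± 0.14). Calb2, the calretinin gene, fell by 1.35 ± 0.19, Pvalb, the parvalbumin gene, by 0.99 ± 0.21, and Gjd2, a connexin gene, by 0.47 ± 0.08. Tac2, a tachykinin gene, fell by 4.15 ± 0.14. Without the dimmest 40% of genes 7 of these genes fell, and without the 3 mice with high lens transcripts 1 rose.

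The peptide gene Sst rose instead, with 8.81, 8.80, 8.16 and 8.16 in Rorb-/- and 6.31, 6.43, 6.57 and 5.65 in +/+ (difference 2.24 ± 0.22, adjusted p = 2.32e-09). The opioid peptide gene Pdyn, outside the list but among the 25 largest rises, had 8.71, 8.86, 8.82 and 8.72 in Rorb-/- and 4.56, 4.90, 5.30 and 5.09 in +/+ (difference 3.81 ± 0.29). Npy differed by 0.08 ± 0.17 with overlapping groups. Of 6 horizontal cell genes 4 fell and 1 rose. Calb1, the calbindin gene, had 8.70, 8.60, 8.71 and 8.62 in Rorb-/- and 10.30, 10.64, 10.58 and 10.66 in +/+ (difference -1.89 ± 0.15), and Gja10, a connexin, fell by 0.81 ± 0.11. Lhx1, a homeobox factor of horizontal cells, had 5.78, 5.40, 6.03 and 5.38 in Rorb-/- and 5.83, 6.23, 6.05 and 5.67 in +/+ and did not pass (-0.30 ± 0.17), whereas it differed by -1.56 ± 0.17 at P14 (change between ages 1.26 ± 0.25, adjusted p = 0.00425). Without the 3 mice with high lens transcripts 2 horizontal cell genes fell, and without the dimmest 40% of genes 1 fell.

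Receptor genes moved in both directions within families. Of 39 measured, 10 (25.6%) rose and 9 (23.1%) fell, beside 15.9% and 15.2% of all genes, and the median was 0.00. Without the 3 mice with high lens transcripts 6 of the 39 rose. Among glycine receptor subunits, Glra3 had 6.71, 6.67, 6.43 and 6.58 in Rorb-/- and 8.61, 8.57, 8.57 and 8.58 in +/+ (difference -1.98 ± 0.12), Glra2 fell by 1.404 ± 0.13, and Glra1 rose to 8.30, 8.36, 8.20 and 8.15 in Rorb-/-, against 7.71, 7.63, 7.40 and 7.48 in +/+ (difference 0.70 ± 0.10). Among GABA receptor subunits, Gabra4 fell by 1.498 ± 0.19 and Gabra5 rose by 1.73 ± 0.14. Among glutamate receptors, the AMPA subunit Gria3 fell by 1.55 ± 0.15 and Gria4 by 0.59 ± 0.10, while Gria2 differed by 0.15 ± 0.09 and did not pass.

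Of the metabotropic glutamate receptors, Grm8 fell by 1.86 ± 0.13 and Grm2 by 0.97 ± 0.13, and Grm5 rose by 0.89 ± 0.09. The nicotinic subunit Chrnb4 had 7.13, 7.83, 7.23 and 7.22 in Rorb-/- and 5.20, 5.18, 4.79 and 5.06 in +/+ (difference 2.29 ± 0.19). At P14 its difference was larger (3.65 ± 0.19, change between ages -1.36 ± 0.27, adjusted p = 0.00466). Drd4, the dopamine receptor of photoreceptors, had 10.24 to 10.63 in Rorb-/- and 11.21 to 11.63 in +/+, without overlap, and a difference of -0.88 ± 0.36 (adjusted p = 0.0599, 0.000119 with only these 8 samples).

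Of 19 genes of ganglion cells, the output neurons, 3 (15.8%) fell and 1 (5.26%) rose, with a median of -0.06. Of all genes, 15.2% fell and 15.9% rose. Slc17a6 (-0.11 ± 0.17), the glutamate transporter of these cells, Rbpms (0.28 ± 0.18), a marker of all of them, and Opn4 (0.18 ± 0.10), the melanopsin gene, did not pass. Gap43, a growth cone protein, rose by 0.65 ± 0.13. Without the 3 mice with high lens transcripts 2 genes rose and none fell, and the 3 falls became 0 without Rorb-/- replicate 2 (2 rose) and 1 without any other single mouse except Rorb-/- replicate 4.

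Genes of Müller glia, the radial glia of the retina, rose in 13 of 18 cases and fell in none, with a median of 0.81. With only these 8 samples in the fit, 1 of the 18 fell. Lhx2, a homeobox factor of these cells, had 9.32, 9.36, 9.32 and 9.31 in Rorb-/- and 7.78, 8.25, 8.07 and 7.86 in +/+ (difference 1.34 ± 0.09, adjusted p = 2.27e-12). Apoe, the lipid carrier made by glia, had 13.28, 13.39, 13.25 and 13.25 in Rorb-/- and 11.81, 11.53, 11.59 and 11.59 in +/+ (difference 1.66 ± 0.07). Hes1, the Notch target, rose by 1.06 ± 0.09, and Sox9, a factor of glia, by 0.86 ± 0.12. Glul, the glutamine synthetase by which Müller glia are stained, had 12.997, 12.90, 12.89 and 12.82 in Rorb-/- and 13.03, 13.05, 12.99 and 12.82 in +/+, and the groups overlapped (-0.07 ± 0.10).

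Of 21 genes of gliosis and cytokine response 7 rose and 1 fell. Gfap, the intermediate filament of reactive glia, had 7.25, 7.23, 7.49 and 7.01 in Rorb-/- and 6.89, 6.42, 6.13 and 5.87 in +/+ (difference 0.92 ± 0.23, adjusted p = 0.00252), without overlap. Cebpd, a transcription factor of acute responses, had 9.01, 9.23, 9.50 and 9.56 in Rorb-/- and 7.97, 7.59, 7.18 and 7.36 in +/+ (difference 1.80 ± 0.16). Stat3, the mediator of cytokine signals, rose by 0.74 ± 0.12, its receptor chain gene Il6st by 0.78 ± 0.18, its inhibitor gene Socs3 by 3.72 ± 0.24 and the ferroxidase gene Cp by 1.48 ± 0.09. The 1 that fell was Edn2, an endothelin released by stressed photoreceptors, with 3.62, 3.52, 3.43 and 3.57 in Rorb-/- and 7.11, 4.87, 4.94 and 4.81 in +/+ (difference -1.90 ± 0.32). The +/+ mouse in replicate 1 was the highest for Edn2 and also for Lcn2, an acute phase gene with 4.47, 4.45, 4.83 and 4.98 in Rorb-/- and 6.25, 4.43, 4.40 and 4.23 in +/+. Fgf2 (-0.17 ± 0.11) and Ccl2 (0.07 ± 0.09) did not pass.

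Of the lists, the interferon-stimulated genes held the most rises by count: 26 of 33 (78.8%, beside 15.9% of all genes) rose and none fell, with a median of 1.73. By share, the cone phototransduction genes rose more often (90%). Ifit1 had 8.62, 8.77, 8.21 and 8.01 in Rorb-/- and 4.72, 4.10, 4.53 and 4.20 in +/+ (difference 4.01 ± 0.53 or 16.2-fold). Rtp4, a chaperone, had 8.70, 8.71, 8.32 and 7.98 in Rorb-/- and 4.88, 4.16, 4.83 and 4.66 in +/+ (difference 3.80 ± 0.50). The transcription factor gene Irf9, part of the complex that carries the interferon signal, rose by 1.98 ± 0.32, the later factor Irf7 by 1.27 ± 0.26, the RNA sensor Ifih1 by 1.79 ± 0.25 and Ifitm3, a membrane protein that restricts viruses, by 3.19 ± 0.33. The list was not uniform: Oas1a rose by 1.58 ± 0.25 while Oas2 (0.04 ± 0.08) and Oas3 (-0.02 ± 0.10) did not pass, and Mx1 stayed under the lower quartile of the arrays in both groups (-0.03 ± 0.12). Usp18, which ends interferon signalling, rose by 4.09 ± 0.61, the widest standard error of the list.

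Of 16 antigen presentation genes 12 rose and none fell. Without the dimmest 40% of genes, or without probe sets that can match several transcripts, 7 rose. B2m, the class I light chain, had 11.36, 11.02, 10.97 and 11.36 in Rorb-/- and 8.60, 8.23, 8.57 and 8.64 in +/+ (difference 2.67 ± 0.27). The immunoproteasome gene Psmb8 rose by 1.81 ± 0.18, the peptide transporter gene Tap2 by 1.10 ± 0.11, the loading factor Tapbp by 0.73 ± 0.10 and Nlrc5, the activator of class I genes, by 1.52 ± 0.20. The class I heavy chain probe sets H2-K1 and H2-D1 are uncertain because family members are near-identical. H2-D1 had 9.94, 10.52, 9.87 and 10.003 in Rorb-/- and 8.39, 8.28, 5.60 and 9.07 in +/+, with +/+ replicate 3 far under its group, and a difference of 2.24 ± 0.83 (adjusted p = 0.0402). Its call was lost without the 3 mice with high lens transcripts (0.392), without +/+ replicate 3 (0.198) and without any 1 of the Rorb-/- mice (0.06 to 0.0903). H2-K1 rose by 1.89 ± 0.47, and its call was lost without the 3 mice (0.107). Of the class II genes, H2-Ab1 (0.30 ± 0.12), H2-Eb1 (-0.05 ± 0.11) and the class II activator Ciita (-0.10 ± 0.12) did not pass, and Cd74, the invariant chain, rose by 0.95 ± 0.14.

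Of 14 complement genes 7 rose and 1 fell, and none fell without the 3 mice with high lens transcripts, without +/+ replicate 3 or 4 alone or with only these 8 samples in the fit. Serping1, the inhibitor of the first complement step, had 8.47, 8.28, 8.68 and 8.35 in Rorb-/- and 6.80, 5.99, 6.16 and 6.31 in +/+ (difference 2.13 ± 0.18). The 3 chains of C1q rose, C1qa by 1.69 ± 0.13, C1qb by 1.11 ± 0.21 and C1qc by 1.74 ± 0.16. Cfb (0.02 ± 0.08), of the alternative pathway, and the anaphylatoxin receptor C5ar1 (0.00 ± 0.08) did not pass. Genes of microglia and macrophages, the cells that make C1q, rose in 10 of 17 cases and fell in none. The mean of the 17 was 5.83 to 6.07 in Rorb-/- and 5.32 to 5.52 in +/+, without overlap. Csf1r, their growth factor receptor, had 8.92, 8.76, 8.48 and 8.74 in Rorb-/- and 7.79, 7.55, 7.72 and 7.75 in +/+ (difference 1.02 ± 0.11), Ctss, a lysosomal protease, rose by 1.26 ± 0.14 and Cx3cr1, the fractalkine receptor, by 0.83 ± 0.16. The resident microglia markers P2ry12 (0.16 ± 0.19) and Tmem119 (0.30 ± 0.13) did not pass. The part of these cells in the complement and antigen presentation differences was not tested.

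**Figure D4:**
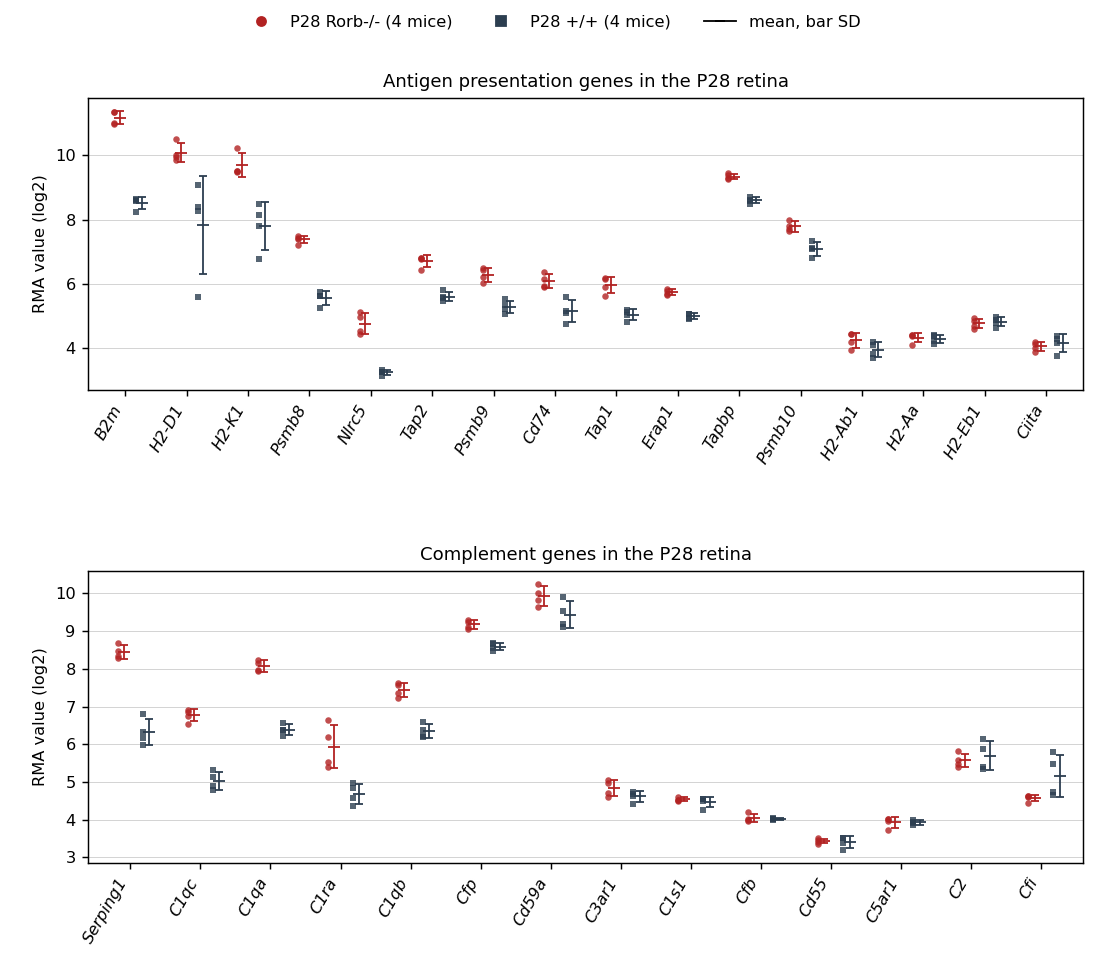
RMA values (log2, vertical axis) of antigen presentation genes (upper panel) and complement genes (lower panel) in P28 Rorb-/- (left of each pair) and P28 +/+ retinas. Points are mice, and the bars give the mean and SD of 4 mice. The 12 genes from B2m to Psmb10 rose in Rorb-/-, the class II genes H2-Ab1, H2-Aa and H2-Eb1 and Ciita at the right did not pass, and H2-D1 has 1 +/+ mouse at 5.60.

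Of 14 apoptosis genes 4 (28.6%) rose, beside 15.9% of all genes, and none fell. Without the dimmest 40% of genes 2 rose. Casp8, an initiator caspase, had 5.56, 5.60, 5.57 and 5.38 in Rorb-/- and 4.76, 5.11, 4.82 and 4.88 in +/+ (difference 0.64 ± 0.13), and Casp1, the inflammatory caspase, rose by 0.80 ± 0.15. Casp9 (-0.16 ± 0.23), Bak1 (-0.01 ± 0.11) and Fas (-0.14 ± 0.10) did not pass.

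Photoreceptors live largely on aerobic glycolysis, and 7 of 18 genes of glycolysis and lactate transport fell while 1 rose, with a median of -0.17. Slc16a1, a lactate transporter, had 10.78, 11.11, 11.04 and 11.10 in Rorb-/- and 12.05, 11.98, 12.02 and 12.15 in +/+ (difference -1.05 ± 0.12). Hk1, a hexokinase, had 10.50, 10.64, 10.67 and 10.67 in Rorb-/- and 11.43, 11.42, 11.24 and 11.37 in +/+ (difference -0.74 ± 0.12), while Hk2, the isoform of photoreceptors, overlapped between the groups (-0.16 ± 0.32). Pfkp, a phosphofructokinase, fell by 0.45 ± 0.11 and the pyruvate kinase gene Pkm by 0.30 ± 0.09, whereas Ldha (-0.10 ± 0.11), the lactate dehydrogenase, did not pass. Slc2a1, the glucose transporter, rose by 0.49 ± 0.10. Without the 3 mice with high lens transcripts 3 of the 18 fell and none rose, with Pkm (0.191) and Slc2a1 (0.0707) past the threshold no longer. The number that fell was 4 when Rorb-/- replicate 2, 3 or 4 or +/+ replicate 4 was left out, and without +/+ replicate 4 the number that rose was 2.

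Of 17 vessel and pericyte genes 8 (47.1%) fell, beside 15.2% of all genes, and 5 fell without the dimmest 40% of genes. The share that rose, 3 of 17 (17.6%), was near that of all genes (15.9%). Abcc9, a potassium channel subunit of pericytes, had 5.51, 5.78, 5.42 and 5.52 in Rorb-/- and 7.23, 7.12, 6.83 and 7.08 in +/+ (difference -1.51 ± 0.11), and its partner Kcnj8 fell by 0.93 ± 0.12. Rgs5, another pericyte gene, had 8.86, 9.20, 9.06 and 8.60 in Rorb-/- and 10.10, 10.02, 9.99 and 10.07 in +/+ (difference -1.12 ± 0.14), whereas the pericyte receptor Pdgfrb overlapped (-0.19 ± 0.19). Of the endothelial genes, Tek fell by 0.84 ± 0.13, Pecam1 by 0.62 ± 0.15 and the efflux pump gene Abcb1a by 1.12 ± 0.19. The VEGF receptor genes rose, Kdr to 9.55, 9.63, 9.96 and 10.03 in Rorb-/-, against 8.44, 8.39, 8.77 and 8.56 in +/+ (difference 1.25 ± 0.12), and Flt1 by 0.59 ± 0.12 (adjusted p = 0.000197, 0.189 with the mean of its probe sets). In the retina Kdr is also known from neurons.

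Markers of tissue next to the retina were uneven. Of 16 pigment epithelium and melanocyte genes 4 (25%) rose and 1 (6.25%) fell, beside 15.9% and 15.2% of all genes. Without the 3 mice with high lens transcripts 2 rose. The visual cycle genes Rpe65 and Rgr did not pass, with 6.62, 6.56, 5.86 and 5.28 in Rorb-/- and 6.33, 5.47, 8.11 and 5.71 in +/+ for Rpe65, where +/+ replicate 3 was the highest. The melanosome gene Pmel had 7.71, 7.67, 6.95 and 6.79 in Rorb-/- and 6.01, 6.27, 6.10 and 5.54 in +/+ (difference 1.30 ± 0.28, adjusted p = 0.000471, 0.0534 without the 3 mice with high lens transcripts). Mitf, the melanocyte and pigment epithelium factor, fell by 1.01 ± 0.10. No red blood cell gene of 3 passed, and of 6 oligodendrocyte and astrocyte genes only S100b did, rising by 0.88 ± 0.14. Of 15 genes of immature neurons and progenitors 4 (26.7%) rose and 1 (6.67%) fell. But 2 rose without the 3 mice with high lens transcripts or without Rorb-/- replicate 2 alone, and none rose without the dimmest 40% of genes. Sfrp2, a secreted Wnt modulator, rose by 1.76 ± 0.23, while the proliferation genes Mki67 (0.04 ± 0.12) and Top2a (0.03 ± 0.16) did not pass.

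Among the 25 largest rises not yet described, Eya1, a transcription cofactor of the eyes absent family, had 8.68, 9.07, 9.003 and 9.12 in Rorb-/- and 5.41, 5.57, 5.54 and 5.22 in +/+ (difference 3.53 ± 0.16). Gpc3, a glypican, had 9.81, 9.51, 9.66 and 10.05 in Rorb-/- and 6.38, 6.15, 6.57 and 6.22 in +/+ (difference 3.43 ± 0.18). Myocd, the coactivator of smooth muscle genes, rose by 3.61 ± 0.26, Gpat3, an enzyme of triglyceride synthesis, by 3.32 ± 0.17, Cckbr, a receptor for cholecystokinin, by 3.07 ± 0.24 and Ednrb, an endothelin receptor, by 3.31 ± 0.22. Cck, the peptide gene of that receptor, had 7.01, 7.04, 6.92 and 6.75 in Rorb-/- and 7.68, 7.68, 7.73 and 7.69 in +/+ (difference -0.77 ± 0.21). Klhl4 rose by 3.08 ± 0.15. Fmod, a matrix proteoglycan, had 8.87, 9.11, 8.97 and 9.19 in Rorb-/- and 7.16, 5.70, 5.16 and 4.89 in +/+, with +/+ replicate 1 highest in its group, as for Edn2 and Lcn2.

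Among the largest falls, Reep6, a rod protein of the endoplasmic reticulum, had 8.68, 8.51, 8.84 and 9.13 in Rorb-/- and 12.72, 12.72, 12.72 and 12.85 in +/+ (difference -3.96 ± 0.29). Susd3 had 6.07, 6.34, 5.81 and 6.04 in Rorb-/- and 9.79, 9.91, 9.88 and 10.003 in +/+ (difference -3.83 ± 0.29). Ccn4, a secreted Wnt target, fell by 4.06 ± 0.25, Glb1l2 by 3.98 ± 0.29, C1ql2, a synaptic protein of the C1q family, by 3.69 ± 0.15, Cdr2 by 3.49 ± 0.29 and Pdzph1 by 3.85 ± 0.53. Pdzph1 varied most, with 5.42, 6.39, 7.63 and 7.59 in Rorb-/- against 10.25 to 10.80 in +/+, and its difference was -2.98 without the 3 mice with high lens transcripts. All 4 Rorb-/- values of each of these genes lay under all 4 +/+ values, as the rule for naming them required.

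In the separate P14 mice, 29.9% of all genes passed adjusted p 0.05 between Rorb-/- and +/+, and 5.23% also differed at least 2-fold. Of the 620 genes at least 2-fold higher at P28, 387 were also at least 2-fold higher at P14 (62.4% of the P28 genes and 79.8% of the 485 P14 genes, which are 2.67% of all genes). Of the 392 lower genes, 289 were also lower at P14 (73.7% of the P28 genes and 61.9% of the 467 P14 genes, 2.57% of all). A change of the difference between the ages passed at adjusted p under 0.05 for 495 genes (2.72%), 257 with a higher (1.41%) and 238 with a lower difference at P28 (1.31%). Cd74 differed by 0.95 ± 0.14 at P28 and by -0.06 ± 0.14 at P14 (change 1.004 ± 0.20, adjusted p = 0.006). Aqp4, the water channel of Müller glia, differed by 0.13 ± 0.11 at P28 and by -0.82 ± 0.11 at P14 (change 0.95 ± 0.15, adjusted p = 0.000513). Osmr, the oncostatin M receptor, differed by 0.21 ± 0.22 at P28 and -1.87 ± 0.22 at P14 (change 2.08 ± 0.30, 0.72 with the mean of its probe sets). For Nrl the change was -0.09 ± 0.57, smaller than its error.

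**Figure D5:**
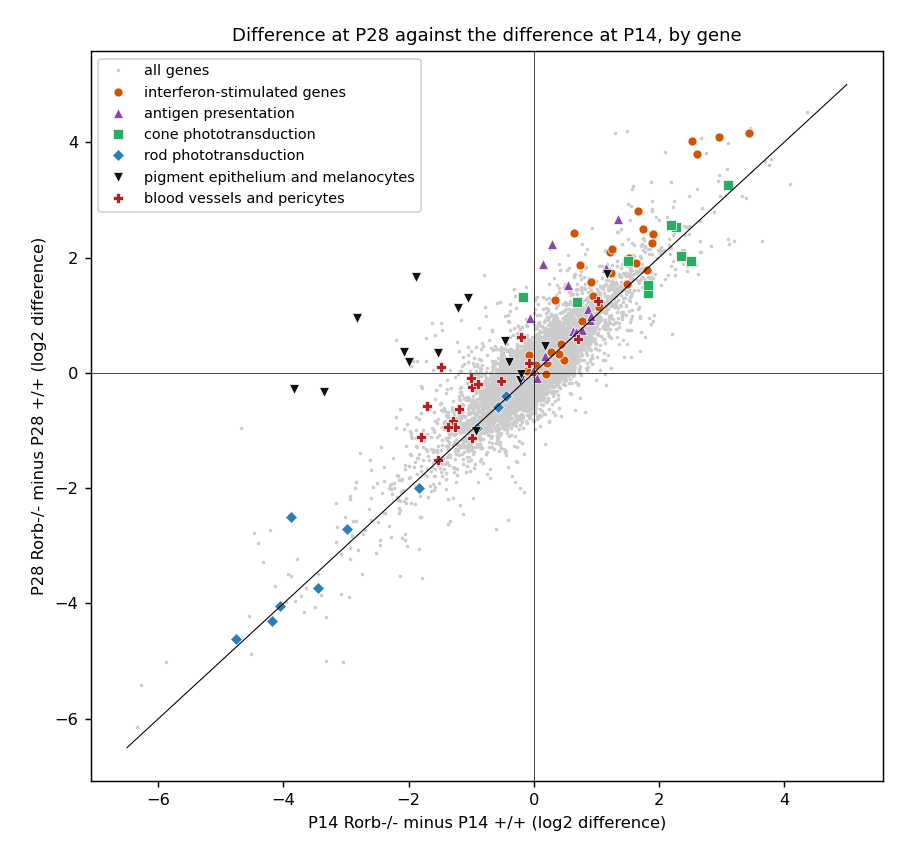
Difference between Rorb-/- and +/+ retinas (log2) at P28 (vertical axis) against P14 (horizontal axis). Grey points are all genes, coloured symbols are the members of 6 lists, and the diagonal marks equal differences. By list median, rod genes lie low at both ages (-2.61 at P28, -3.22 at P14). Cone genes (1.94 and 2.01) and interferon-stimulated genes (1.73 and 1.05) lie high by median, though not every member does. The pigment epithelium gene Rgr lies far above the diagonal, with -0.27 at P28 and -3.83 at P14.

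On chromosome 19, where Rorb lies, 9 of the 20 nearest measured genes, 10 on either side, also passed, beside 31.1% of all genes. Apart from Aldh1a1, a member of a list, they were named after their values were seen. Trpm3, a cation channel gene, differed by 2.02 ± 0.14 (adjusted p = 3.78e-12), with means of 10.57 in Rorb-/- and 8.55 in +/+. Nmrk1, a kinase of NAD synthesis, differed by -1.04 ± 0.16 (3.37 in Rorb-/- and 4.41 in +/+), Ostf1 by -0.47 ± 0.09 and Abhd17b by -0.46 ± 0.06. The others were Prune2 (0.58 ± 0.16), Carnmt1 (-0.20 ± 0.08), 1110059E24Rik (0.41 ± 0.08) and Cemip2 (0.59 ± 0.14). Trpm6, the nearest on 1 side, differed by 0.05 ± 0.10 and did not pass.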

How the data were processed

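The value table holds log2 expression values that the authors deposited, made with RMA (background correction, quantile normalization and probe summary), per the submitters' processing notes; no software version is given in the sources used here. Of 45101 probe sets, 34945 with 1 gene symbol were used, 932 carried several symbols and 9211 none. Each of 18193 genes was taken from 1 probe set, that of highest mean. Replicates are separate mice. Differences were tested with limma 3.58.1 in R 4.3.3 on the deposited values: 1 mean for each of the 8 groups of all 31 arrays, so that all groups share 1 estimate of the spread, eBayes with a mean trend, and Benjamini-Hochberg adjustment. The procedure was tested on simulated data, with 50 genes at each of 4 true log2 differences between -2 and 2, of which 98 to 100% per size were called for P28, with 14 of 17993 unchanged genes called. The simulated spread of a gene was the same in all 8 groups. Far fewer genes differed there than the 31.1% that passed in the data, so these shares need not hold for the data. The number of arrays limits the precision. Same-numbered Rorb-/- and +/+ mice did not deviate together over all genes (correlations -0.07 to 0.01). Such correlations cannot show whether equal numbers stand for a shared litter or batch. The fit used no pairing by number.

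Genes named are Rorb and Nrl, members of the gene lists, and the rod and cone pairs. Some of the 25 largest rises and 25 largest falls at P28 whose samples do not overlap are named too. So are some genes of largest change between the ages. The largest rises (Clca1, Slco1a5, Tc2n and Poteg) and the largest fall (Nt5e) chosen by this rule are not described. Members and lists were chosen with earlier results of these data known. Promoters came from RefSeq (GRCm38.p6). Alternatives covered scaling, the choice of probe sets, a filter on dim genes, the fit's variance prior, array weights, a covariate for sex, the replicate block, the samples in the fit, the fold requirement and leaving out mice. Figures were drawn with matplotlib 3.10.9.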

Additional observations from a re-analysis of the deposited data

Results flagged for a closer look

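Of the 444 sets of 4 P28 values of the named genes, 30 had 1 mouse whose gap to the nearest of the other 3, divided by the range of the 4, was above the 95% critical value of Dixon's test, and chance flags about 1 in 20 sets. The log2 value of that mouse is given in parentheses. A single Rorb-/- mouse stood above its group for Ccl2 (3.85), Chrnb4 (7.83), H2-K1 (10.24), Mki67 (3.86), Prph2 (11.25) and Sfrp2 (6.71). A single Rorb-/- mouse stood below its group for Casp1 (3.64), Dio2 (9.30), Gjd2 (9.80), H2-Aa (4.12), Hk1 (10.50), Rgs9bp (10.21), Rxra (6.78) and Tap2 (6.43). A single +/+ mouse stood above its group for Barhl2 (5.13), Cck (7.73), Edn2 (7.11), Hes1 (7.79), Ifitm3 (8.19), Lcn2 (6.25), Oas3 (3.93), Prkca (11.41) and Reep6 (12.85). A single +/+ mouse stood below its group for Gnb3 (11.12), Gphn (8.88), Grm8 (7.36), Mx1 (3.02), Pde6c (9.23), Slc17a6 (9.27) and Tmem119 (4.49). Prph2 had the widest gap, with Rorb-/- replicate 3 at 11.25 against 5.07 to 5.59 in the other Rorb-/- mice. Edn2 and Lcn2 shared the outlying +/+ mouse, replicate 1.

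For 19 of the 222 named genes the difference between Rorb-/- and +/+ retinas changed from P14 to P28, by the test of that change in the limma fit (adjusted p under 0.05). The change, the difference at P28 minus that at P14 on the log2 scale, was positive for Rgr (3.56), Rpe65 (3.03), Dio2 (2.50), Pmel (2.36), Osmr (2.08), Opn1mw (1.495), Ednrb (1.44), Cck (1.43), Lhx1 (1.26), Cd74 (1.004), Calb1 (0.96), Aqp4 (0.95), S100b (0.72), Gad2 (0.50) and Scgn (0.45). It was negative for Fscn2 (-1.98), Chrnb4 (-1.36), Prkca (-0.71) and Pcp2 (-0.43). For Rgr the difference was -0.27 at P28 and -3.83 at P14, for Rpe65 -0.32 and -3.35, and for Pmel 1.30 and -1.06. At P14 all 3 of these pigment epithelium and melanocyte genes were lower without Rorb (adjusted p = 1.05e-06, 6.42e-07 and 0.00379). Without +/+ replicate 3 of P28, the change for Rgr was 4.22. At P28 Rgr and Rpe65 did not pass and Pmel was higher. Of the 16 fits that each left out 1 of the compared mice, 13 lost the call of Gad2, 12 that of S100b and 11 that of Scgn. Without the 3 P28 mice with high lens transcripts, 8 of these genes lost the call: Calb1 (adjusted p = 0.0623), Cck (0.0652), Gad2 (0.303), Opn1mw (0.121), Pcp2 (0.138), Prkca (0.0615), S100b (0.153) and Scgn (0.175). Ednrb lost it when the fit held just the 16 mice of both ages compared (0.0528), and Pcp2 with the mean of its probe sets (0.089).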

How the results depend on the processing

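At P28 620 genes were at least 2-fold higher and 392 lower, and over the alternatives that kept the fold requirement these counts ran from 493 to 670 and from 308 to 410. Without the fold requirement, adjusted p alone called 2889 higher and 2768 lower at P28, 2908 and 2537 at P14, and 257 and 238 for the change between ages. Without the dimmest 40% of genes, 55 changes between ages were higher and 15 lower, against 97 and 29, with fewer genes tested. Leaving out 1 mouse at a time gave 610 to 640 higher and 381 to 410 lower at P28, 459 to 510 and 455 to 495 at P14, and 75 to 123 and 26 to 37 for the change between ages. Of the 1012 genes changed at P28, 79.5% stayed changed with the mean of a gene's probe sets, 91.0% (921) without the 3 P28 mice with high lens transcripts, an alternative chosen after seeing the data, and 95.0% to 100% under the other alternatives that kept the fold requirement, over the genes each tested. Without those 3 mice there were 670 higher and 409 lower. The replicate number as a block gave 622 higher and 395 lower at P28, 485 and 469 at P14, and 104 and 35 for the change between ages. Same-numbered deviations correlated at -0.07 to 0.01, which does not settle whether the numbers pair mice. The block moved no count of changed genes by over 1.5 times, though it moved counts of some lists, such as the clock genes. Of the 164 named genes called at P28, 153 kept their call in each alternative run that tested them, and no named difference that passed changed direction. The filters on dim genes and on probe sets left some genes untested. With the mean of a gene's probe sets the P28 difference moved by over 1.5 times for 25 named genes that passed, 24 of which still did: Calb1 (-1.30), Cebpd (1.05), Chrnb4 (1.54), Csf1r (0.59), Cx3cr1 (0.47), Esrrb (-2.36), Eya1 (2.37), Flt1 (0.18), Fmod (2.18), Gad2 (0.44), Glra3 (-1.39), H2-D1 (0.96), Mitf (-0.65), Myocd (2.53), Psmb8 (0.94), Rtp4 (2.07), Samd11 (-2.32), Slc24a2 (0.74), Slc32a1 (-0.51), Slc6a5 (-1.23), Sox9 (0.52), Stat3 (0.48), Susd3 (-2.50), Tfap2a (-2.77) and Tfap2c (-2.61). The change between ages was then 1.78 for Dio2, 0.72 for Osmr and 0.12 for Gad2. Without probe sets that can match several transcripts, the P28 difference moved as far for Arntl (-0.41), Arr3 (2.64), Fmod (2.04), H2-D1 (0.90), Socs3 (2.34) and Tfap2c (-2.19). Of the named genes that did not pass at P28 and are given above with no other setting, Opn4 passed with the mean of its probe sets (0.46, adjusted p = 0.0068), Rora with only the 8 P28 samples (0.0379), H2-Ab1 without +/+ replicate 2 (0.0271) or Rorb-/- replicate 3 (0.0161), Rara without +/+ replicate 1 (0.0251) and Tmem119 without Rorb-/- replicate 4 (0.0216). With the replicate number as a block H2-Ab1 (0.0456), Rara (0.0422) and Opn1sw (0.0333) passed. Values at the lower end or near the maxima of the arrays limit what can be resolved there.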
